A study of Mus musculus with 6 samples.

Results

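The MYC, MAX and MXD network was followed across premalignant B cells and lymphomas of Eµ-Myc mice, whose Myc transgene is under the control of the Eµ enhancer of the antibody heavy chain locus and is active in B-lineage cells. Its 10 genes were taken by name from the array annotation: Myc, Mycn, Max, Mxd1, Mxd3, Mxd4, Mxi1, Mnt, Mga and Mlx. All 10 were measured, each by 1 probe set that carried no other gene, among 19938 genes in all. The 6 arrays fell into 3 groups of 2. Premalignant splenic B cells came from Eµ-Myc animals in 2 separate preparations with no hairpin named, and 1 label calls them normal B cells. The other groups were Eµ-Myc B cell lymphomas with a short hairpin RNA against Ezh2, the methyltransferase of polycomb repressive complex 2, shEzh2.781 in one and shEzh2.556 in the other. All 3 groups carry the Eµ-Myc transgene, so a difference between them is never a difference in its presence. The labels give no strain or age, and they do not tie the arrays of one hairpin to separate mice. The p-values therefore rest on the spread between samples that may differ only technically. All lymphomas analysed here carry a hairpin against Ezh2. Malignancy, hairpin and cell preparation (sorting for premalignant cells, CD43 bead depletion for lymphomas) cannot be told apart.

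MYC binds DNA only as a pair with MAX, at E-box letters, and such pairs switch genes on for growth and division. MXD proteins (MXD1, MXD3, MXD4 and MXI1) and MNT take MAX for themselves, sit on the same letters and bring in the SIN3 and histone deacetylase corepressor, which switches the gene off. MGA also pairs with MAX and belongs to a variant polycomb complex. MLX is a MAX-like partner that pairs with the glucose sensors MondoA (Mlxip) and ChREBP (Mlxipl) and with some MXD proteins. MXD1 is known to rise as blood cells stop dividing and mature, whereas MXD3 is known from cells in S phase.

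The network's own genes can carry the letters that its proteins bind, so promoters were searched for CACGTG, which reads the same on both strands. RefSeq promoters of build GRCm38.p6, running from 250 bases before to 50 bases after each start, were matched by symbol for 9 of the 10 genes. The E-box stood in the window of 4 of these 9 genes, Max, Mxd4, Mnt and Mlx, against 8.09% of all 27025 genes in the table and 7.15% of its 32851 promoters. Stretches of 50 bases around it are shown with the E-box in capitals, to set Mxd4, the 1 gene among them that fell in lymphomas, beside the 3 that did not pass the test. They are followed by the 100 bases before the start of Mxd3 and Mxd1, which fell and hold no CACGTG in the window. The stretches lie at chr5:34187902-34187951 on the minus strand (Mxd4), chr12:76962224-76962273 on the minus strand (Max), chr11:74830779-74830828 on the plus strand (Mnt), chr11:101087228-101087277 on the plus strand (Mlx), chr13:55329732-55329831 on the minus strand (Mxd3) and chr6:86669160-86669259 on the minus strand (Mxd1).
Mxd4: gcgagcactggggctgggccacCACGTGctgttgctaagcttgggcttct
Max: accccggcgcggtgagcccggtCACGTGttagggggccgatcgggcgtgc
Mnt: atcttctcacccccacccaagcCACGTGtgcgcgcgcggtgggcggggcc
Mlx: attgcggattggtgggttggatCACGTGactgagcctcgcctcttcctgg
Mxd3: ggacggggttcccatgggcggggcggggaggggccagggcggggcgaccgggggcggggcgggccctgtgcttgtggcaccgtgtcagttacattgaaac
Mxd1: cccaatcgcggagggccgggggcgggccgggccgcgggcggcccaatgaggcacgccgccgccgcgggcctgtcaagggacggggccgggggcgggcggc
The E-box began 219 bases before the start in Mxd4, 123 in Mnt, 40 in Mlx and 3 in Max. A match in these letters is a description of the sequence, and no binding was measured. The share of G and C over the 300 bases was 55% to 76.7% in the members' windows, against a median of 52.7% over all promoters. It was 76.7% for Mxd1 and 71% for Mxd3, and about as high in members that were not called, at 70.7% for Mnt and 75% for 1 of 3 promoters of Mxi1.

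Levels are log2 signals as deposited, on which a difference of 1 is a doubling. Network genes were not compared with one another by level, because each is read by its own probes. For the same reason the place given below for Myc and Mycn among all probe sets is only a rough guide. Over all probe sets the array medians lay between 6.75 and 6.91, and arrays of one group correlated at 0.991 to 0.994. Ezh2, the target of the hairpins, read 12.64 and 12.7 in premalignant cells and between 10.92 and 11.3 in the 4 lymphomas, and fell by 1.55 (SE 0.1, limma adjusted p = 1.31e-06). A gene was called when its limma p-value, adjusted by Benjamini-Hochberg over all 19938 genes, was under 0.05. In the comparison of all lymphomas with premalignant cells 15.2% of genes were called, 5.6% higher and 9.61% lower. The deposited scaling bears on this split: 36.8% of the called genes were higher as deposited, 49.2% after quantile normalization and 52.4% after each array's median was subtracted. For shEzh2.781 alone that share moved from 42.4% to 67.3% with medians subtracted, and between the hairpins from 54.9% to 83.2%. For shEzh2.556 it moved from 37.3% to 50.7% after quantile normalization. The median difference of all genes between the hairpins moved from -0.07 as deposited to 0.04 with medians subtracted.

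In the lymphomas 3 of the 6 antagonist genes fell, Mxd1, Mxd3 and Mxd4, while no other member passed the test in either direction. The 3 of 10 members called stand beside 15.2% of all genes, and the 3 called lower beside 9.61%. The count was 1 with premalignant array 2 left out. It was also 1, the call on Mxd3, when the 4 lymphomas were fitted as 1 group (adjusted p = 0.0878 for Mxd1 and 0.0536 for Mxd4). The 10 members had a median difference of -0.06, against 0.03 over all genes. All 4 lymphoma arrays lay below both premalignant arrays for 5 members (16.1% of all genes) and above both for 2 (12.7%), against 28.8% of all genes in either direction. For 3 members the groups overlapped. After quantile normalization or with medians subtracted the same 3 were called in this comparison.

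**Figure D1:**
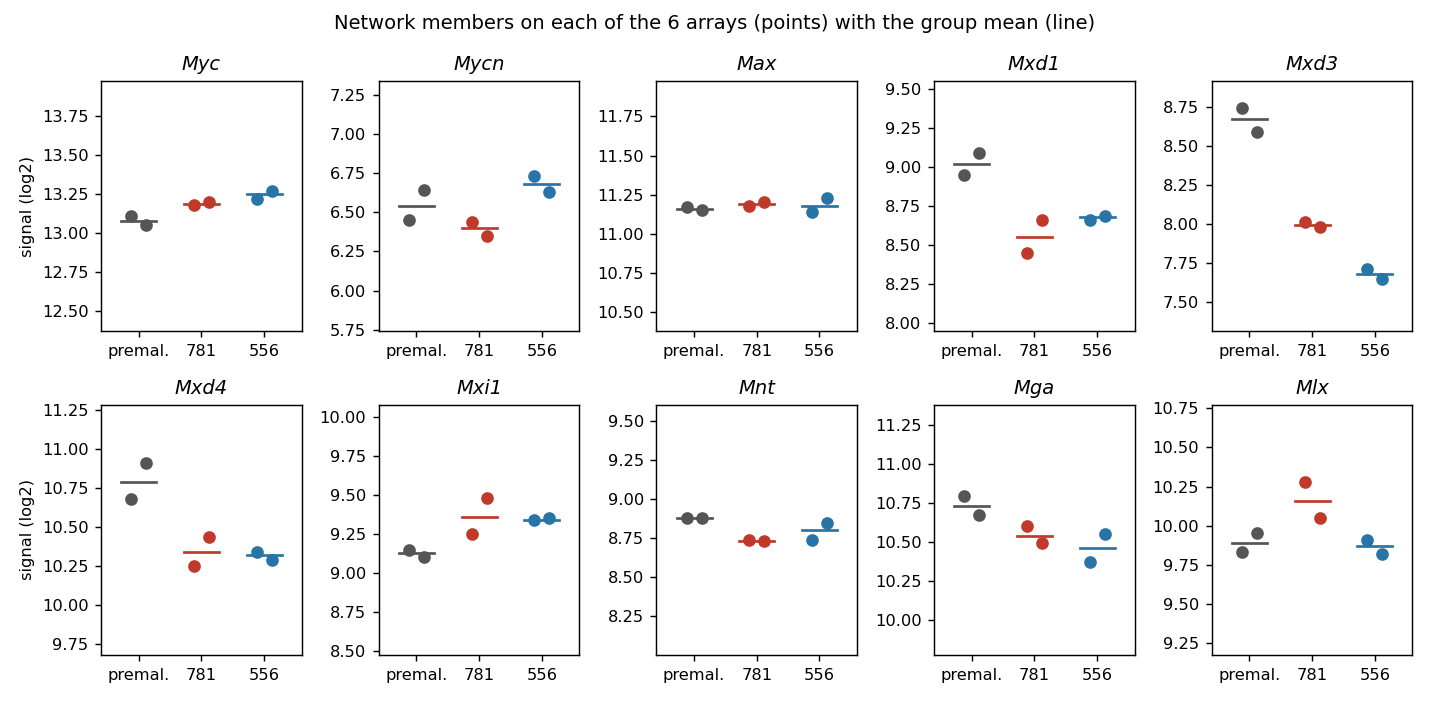
Log2 signal (y axis, each panel spanning 1.6 units around its own centre) of the 10 network genes in premalignant cells and in shEzh2.781 and shEzh2.556 lymphomas; points are arrays and lines group means of 2 arrays. Mxd3 falls from 8.59 to 8.74 in premalignant cells to between 7.65 and 8.01 in lymphomas, whereas Max stays between 11.14 and 11.23.

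Myc, the oncogene driven in this model, had a signal of 13.11 and 13.05 in premalignant cells, 13.18 and 13.2 in shEzh2.781 lymphomas and 13.22 and 13.27 in shEzh2.556 lymphomas. All 4 lymphomas lay above both premalignant arrays, by small steps. The difference of 0.14 (SE 0.09, 95% interval -0.07 to 0.34) did not pass the test (limma adjusted p = 0.402). On every array between 0.459% and 0.696% of probe sets had a higher signal than Myc, with a highest value of 13.99 to 14.22, so the probe set read close to the top of the scale in every group. The files do not say how far it reads the transgene and the chromosomal gene alike, and its signal is given as their total.

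Mycn, the paralogue of Myc that is known from progenitors, read 6.45 and 6.64 in premalignant cells, 6.44 and 6.35 with shEzh2.781, and 6.73 and 6.63 with shEzh2.556. These values lay below the median of their array on all 6 arrays, with 42.3% to 47.4% of probe sets lower still. The groups overlapped, and the lymphomas differed from premalignant cells by -0.01 (SE 0.1, 95% interval -0.23 to 0.22, adjusted p = 0.982), a sign that turned to 0.05 after quantile normalization and 0.06 with medians subtracted.

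Max, the partner shared by MYC, the MXD proteins, MNT and MGA, was the steadiest member, within 0.09 over the 6 arrays. It read 11.17 and 11.15 in premalignant cells, 11.18 and 11.2 with shEzh2.781, and 11.14 and 11.23 with shEzh2.556. The difference between lymphomas and premalignant cells was 0.03 (SE 0.09, adjusted p = 0.902), and its 95% interval ran from -0.18 to 0.23. Mlx, the MAX-like partner, read 9.83 and 9.95 in premalignant cells, 10.28 and 10.05 with shEzh2.781, and 9.91 and 9.82 with shEzh2.556. Both shEzh2.781 arrays were above both premalignant arrays, but the difference of 0.27 (SE 0.12, adjusted p = 0.211) did not pass the test, and over both hairpins it was 0.12 (adjusted p = 0.519).

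Mxd3, the antagonist of cycling cells, had the widest range among the members, 1.1 over the 6 arrays. Its signal was 8.74 and 8.59 in premalignant cells, 8.01 and 7.98 in shEzh2.781 lymphomas and 7.71 and 7.65 in shEzh2.556 lymphomas. The 3 groups did not overlap, and the shEzh2.556 arrays were lowest. Mxd3 fell by 0.83 (SE 0.1, adjusted p = 0.000122), which is 1.78-fold lower. It fell by 0.67 (SE 0.11, adjusted p = 0.00229) with shEzh2.781, and it fell by 0.99 (SE 0.11, adjusted p = 9.86e-05) with shEzh2.556. These calls held in each alternative setting tried. Between the hairpins Mxd3 differed by 0.31 (SE 0.11, 95% interval 0.06 to 0.56, adjusted p = 0.0946), which passed the threshold only after each array's median was subtracted (0.42, adjusted p = 0.0357).

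Mitosis genes are given beside Mxd3, since it is known from cycling cells. Of 14 measured, 9 fell in the lymphomas and none rose (9.61% of all genes were called lower), with a median difference of -0.39, and their mean signal was 11.71 and 11.64 in premalignant cells, 11.39 and 11.22 with shEzh2.781, and 11.18 and 11.26 with shEzh2.556. Leaving out premalignant array 1 left 3 calls, leaving out premalignant array 2 left 4, leaving out shEzh2.781 array 2 left 6 and leaving out shEzh2.556 array 1 left 5. Cenpf, a kinetochore protein, fell by 0.87 (SE 0.13, adjusted p = 0.000792) and Cdc20, an activator of the anaphase complex, fell by 0.58 (SE 0.11, adjusted p = 0.00321). With shEzh2.781 alone 3 mitosis genes were called lower and with shEzh2.556 9 were, beside 6.24% and 11.4% of all genes. At an unadjusted limma p under 0.05 the counts of lower mitosis genes were 11 and 12. Over all 19938 genes 4471 and 6678 stood under that p in either direction, and 6189 between the hairpins. Between the hairpins, where the Mxd3 arrays did not overlap, the mitosis means did, with a median difference of 0.06 and none of the 14 called by limma (2 higher with shEzh2.781 at an unadjusted p under 0.05). The part of this change in the Mxd3 result was not tested.

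Mxd4 read 10.68 and 10.91 in premalignant cells, 10.25 and 10.44 in shEzh2.781 lymphomas and 10.34 and 10.29 in shEzh2.556 lymphomas. All 4 lymphomas were below both premalignant arrays, and the lymphoma groups overlapped each other. Mxd4 fell by 0.46 (SE 0.11, adjusted p = 0.0114), or 1.38-fold. With shEzh2.781 the difference was -0.45 (adjusted p = 0.0366) and with shEzh2.556 -0.48 (adjusted p = 0.0204), and the hairpins differed by 0.02 with a 95% interval of -0.25 to 0.29. Premalignant array 2 was the higher of its pair, and without it the difference of -0.35 no longer passed (adjusted p = 0.126). Nor did the shEzh2.781 difference pass with medians subtracted (-0.33, adjusted p = 0.0851).

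Mxd1, the founding member of the antagonist family, read 8.95 and 9.09 in premalignant cells, 8.45 and 8.66 in shEzh2.781 lymphomas and 8.66 and 8.69 in shEzh2.556 lymphomas. Again no lymphoma array reached a premalignant one. Mxd1 fell by 0.41 (SE 0.1, adjusted p = 0.0198), or 1.33-fold, over both hairpins. It fell by 0.47 with shEzh2.781 (SE 0.12, adjusted p = 0.027), while the difference with shEzh2.556 was -0.35 (SE 0.12, adjusted p = 0.0674). The hairpins differed by -0.12 (SE 0.12, adjusted p = 0.496), with a 95% interval of -0.38 to 0.14, so a difference between them was not shown. Of the 3 calls this one was lost most often on leaving out an array: the adjusted p rounded to 0.05 for premalignant array 1, and was 0.148 for premalignant array 2, 0.0643 for array 1 of shEzh2.781 and 0.0523 for array 1 of shEzh2.556. The shEzh2.781 call ended with medians subtracted (adjusted p = 0.0699).

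Mxd1 is known to be abundant in neutrophils, so their markers are given beside it. Of 12 neutrophil markers 11 fell and none rose in the lymphomas (9.61% of all genes were called lower), with a median difference of -2.07. With shEzh2.781 alone 8 fell and with shEzh2.556 12 did, beside 6.24% and 11.4% of all genes called lower. The differences ran from -1.78 to 0.03 with shEzh2.781 and from -3.63 to -1.01 with shEzh2.556. Their mean signal was 9.18 and 9.37 in premalignant cells, 7.84 and 8.63 with shEzh2.781, and 6.74 and 6.11 with shEzh2.556. Mxd1 and the marker mean were both highest on the premalignant arrays, but the marker mean was lowest with shEzh2.556 and Mxd1 was lowest on shEzh2.781 array 1. The part of neutrophil RNA in the Mxd1 result was not tested, and in bulk samples fewer cells of a type and less RNA per cell cannot be told apart.

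**Figure D2:**
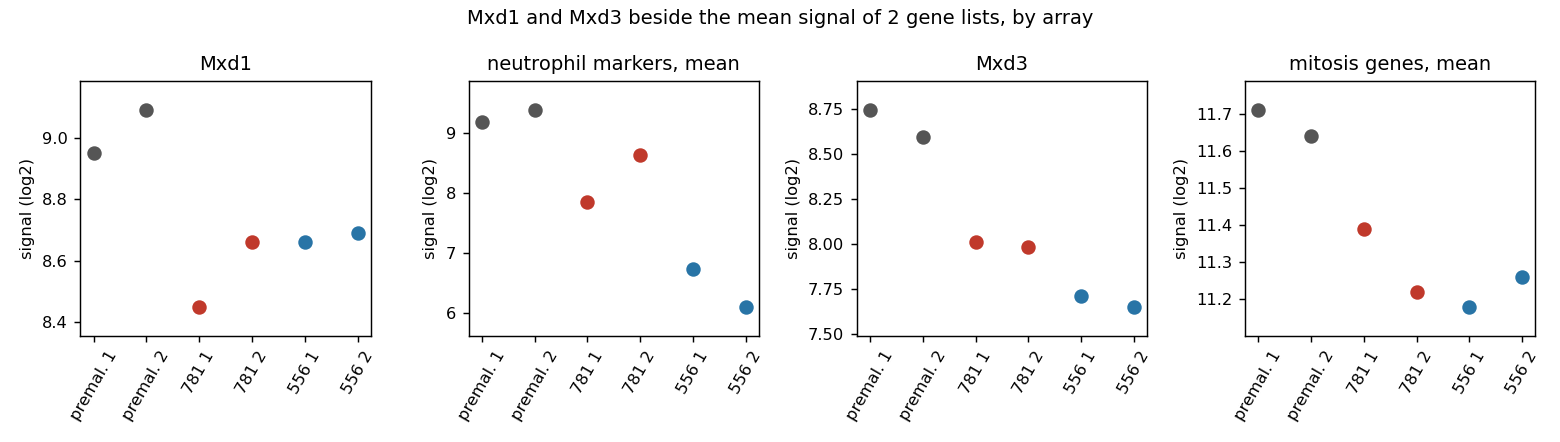
Log2 signal by array of Mxd1, the mean of 12 neutrophil markers, Mxd3 and the mean of 14 mitosis genes; grey, premalignant, red, shEzh2.781, blue, shEzh2.556, with a separate y axis per panel. Mxd3 and the mitosis mean are lower on all 4 lymphoma arrays than on both premalignant arrays, and the neutrophil mean reaches 6.11 in a shEzh2.556 lymphoma where Mxd1 is 8.69.

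Mxi1, the remaining MXD family gene, went the other way in its values. It read 9.15 and 9.1 in premalignant cells, 9.25 and 9.48 with shEzh2.781, and 9.34 and 9.35 with shEzh2.556, so all 4 lymphomas were above both premalignant arrays. The difference of 0.23 (SE 0.1, limma adjusted p = 0.177) did not pass the test.

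Mga, the MAX partner with a second DNA-binding domain of the T-box type, read 10.79 and 10.67 in premalignant cells, 10.6 and 10.49 with shEzh2.781, and 10.37 and 10.55 with shEzh2.556. It was lower on all 4 lymphoma arrays, with a difference of -0.23 (SE 0.1, adjusted p = 0.182) that did not pass. Mnt, the antagonist found in most dividing cells, read 8.88 on both premalignant arrays, 8.74 and 8.73 with shEzh2.781, and 8.74 and 8.85 with shEzh2.556. Its difference was -0.11 (SE 0.09, 95% interval -0.32 to 0.09, adjusted p = 0.512).

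**Figure D3:**
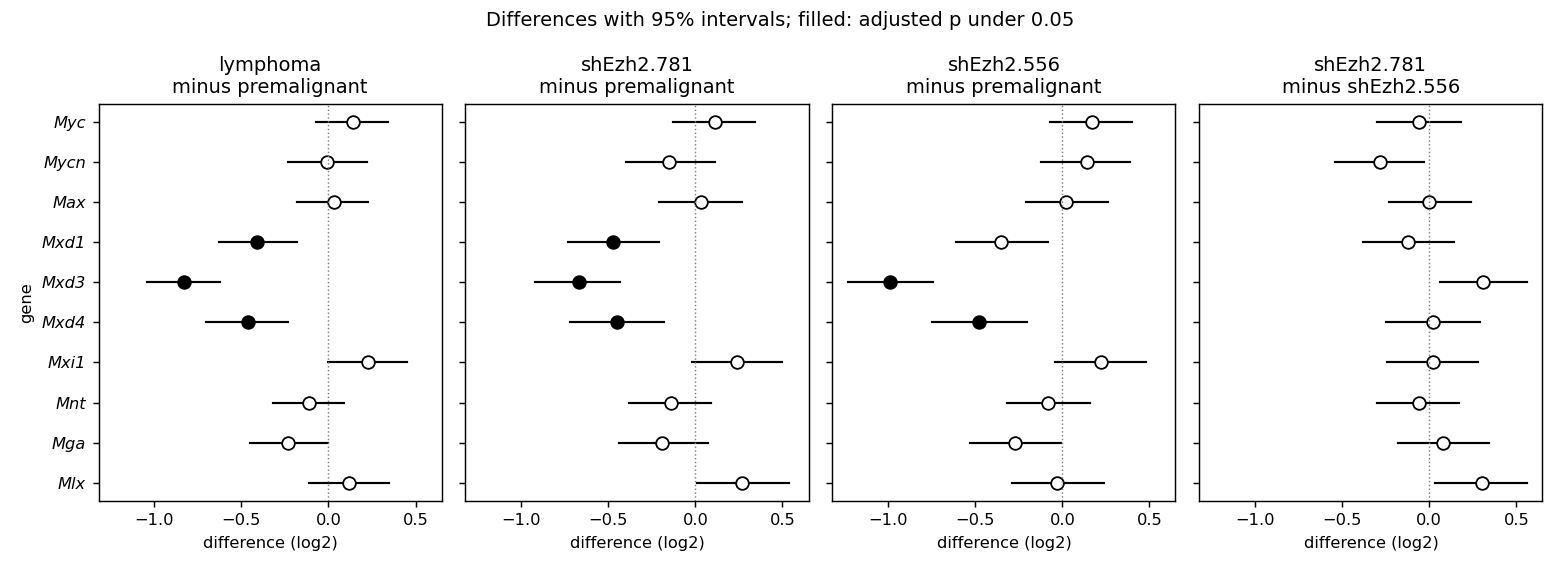
Difference in log2 signal (x axis) of each network gene in the 4 comparisons, with 95% intervals of the limma fit; filled points have an adjusted p under 0.05. Filled points appear for Mxd1, Mxd3 and Mxd4 in lymphomas and shEzh2.781, for Mxd3 and Mxd4 with shEzh2.556, and for no gene between the hairpins.

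Each hairpin was also compared with premalignant cells by itself, to ask whether the pattern held with both. With shEzh2.781, 3 members were called, all lower (10.8% of all genes were called, 6.24% lower and 4.6% higher). With shEzh2.556, 2 members were called, both lower (18.2% of all genes were called, 11.4% lower and 6.8% higher). Both comparisons use the same premalignant arrays and are therefore not independent. With premalignant array 2 left out each count was 1, the call on Mxd3. The count for shEzh2.781 was also 1 without its own array 1 and 2 without either array of the other hairpin, and the count for shEzh2.556 was 1 without either of its own arrays.

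The lymphomas of the 2 hairpins were then compared directly. No member was called by limma, while 10% of all genes were (4.53% lower and 5.5% higher with shEzh2.781). At an unadjusted limma p under 0.05 there were 3 of the 10 members, beside 6189 of all 19938 genes, which is a similar share. Besides Mxd3 the members were Mycn and Mlx. Mycn read 6.44 and 6.35 with shEzh2.781 against 6.73 and 6.63, a difference of -0.28 (SE 0.12, adjusted p = 0.128). Mlx read 10.28 and 10.05 with shEzh2.781 against 9.91 and 9.82, a difference of 0.3 (SE 0.12, adjusted p = 0.127), which passed with medians subtracted (0.41, adjusted p = 0.0418). For Max the 95% interval of the difference was -0.23 to 0.24 and for Myc -0.3 to 0.18, which bounds what the spread between arrays leaves possible at that level.

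**Figure D4:**
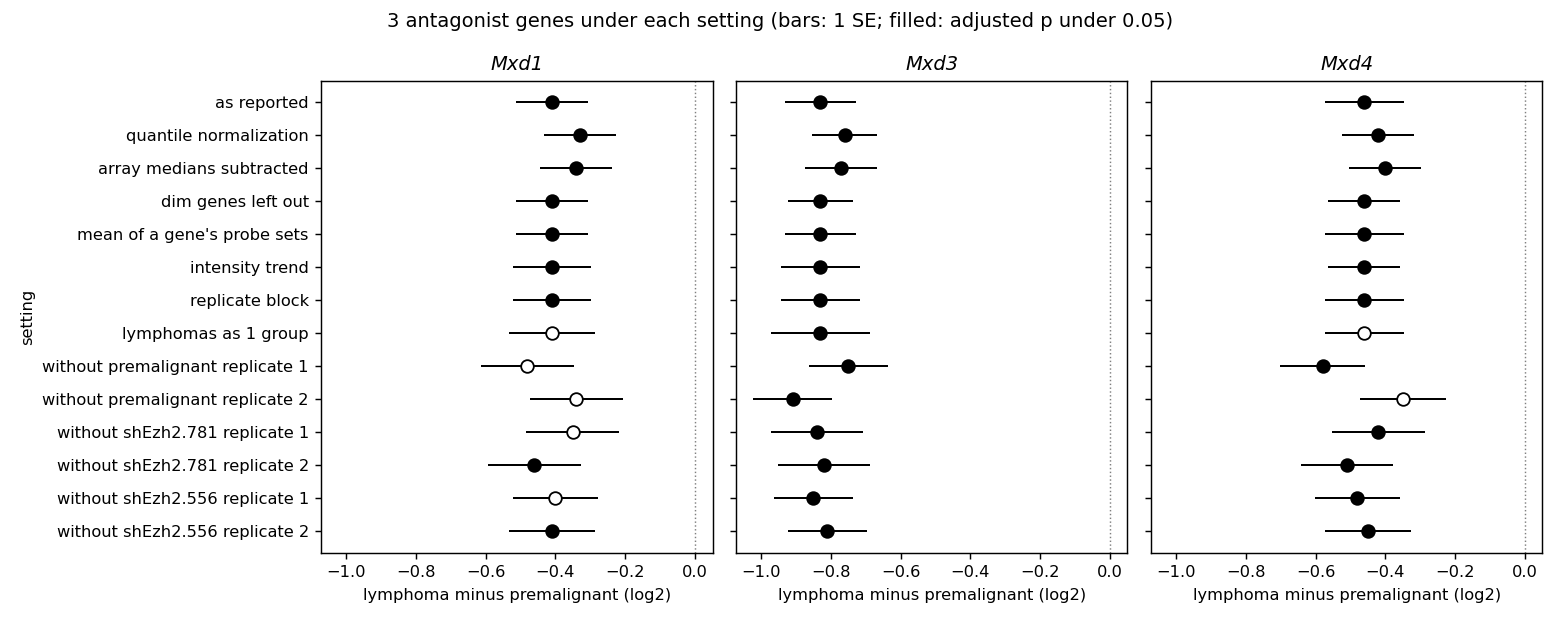
Difference between lymphomas and premalignant cells (x axis, log2, bars 1 SE) of Mxd1, Mxd3 and Mxd4 as reported and under 13 other settings; filled points have an adjusted p under 0.05. Mxd3 passes in every setting shown, Mxd1 fails in 5 and Mxd4 in 2.

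Genes that work with the network were listed by role and counted in the comparison of all lymphomas with premalignant cells. The lists are described by counts and medians, beside 5.6% of genes called higher, 9.61% called lower and a median of 0.03 over all genes. These list counts are for the values as deposited, and the split of all genes into higher and lower depended on the scaling, as given above. Of 12 further E-box factors and MYC-binding proteins, 1 fell. This was Mlxip, encoding MondoA, the partner of MLX, which fell by 0.48 (SE 0.13, adjusted p = 0.0243), a call lost without premalignant array 2 or shEzh2.556 array 1. The other MLX partner, Mlxipl, differed by 0.06 (adjusted p = 0.788) and the MYC paralogue Mycl by -0.21 (adjusted p = 0.282). Zbtb17, the MIZ1 protein through which MYC represses, differed by -0.27 (adjusted p = 0.0917). With each hairpin alone 1 gene of this list was called lower. With shEzh2.781 it was Mlxip (-0.57, limma adjusted p = 0.0288), with Zbtb17 at -0.17 (adjusted p = 0.45). With shEzh2.556 it was Zbtb17 (-0.37, adjusted p = 0.0406), with Mlxip at -0.4 (adjusted p = 0.0873).

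Of 18 genes measured for the SIN3 and histone deacetylase corepressor, which the MXD proteins recruit, 4 fell and none rose (median -0.12). Both scaffold genes were among them. Sin3b read 9.47 and 9.51 in premalignant cells and between 9 and 9.13 in lymphomas, and fell by 0.43 (SE 0.09, adjusted p = 0.00927). Sin3a fell by 0.33 (SE 0.1, adjusted p = 0.04), with signals of 10.22 and 10.25 against 9.68 to 10.08. The subunit gene Arid4a fell by 0.44 (adjusted p = 0.0182) and Arid4b fell by 0.43 (adjusted p = 0.0222). With shEzh2.781 alone 2 genes of this list fell and with shEzh2.556 5 did, and Sin3a was not called with shEzh2.781 (-0.18, adjusted p = 0.419). With premalignant array 2 left out no gene of this list was called over both hairpins. The count was 1 for premalignant array 1, 1 for array 1 of shEzh2.556 and 2 for array 1 of shEzh2.781.

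Of 17 coactivator genes of MYC, 3 fell and 1 rose (median -0.09). Trrap, the scaffold that brings histone acetyltransferases to MYC, fell by 0.42 (SE 0.1, adjusted p = 0.00995), and the acetyltransferase gene Crebbp fell by 0.37. Wdr5, which helps MYC onto chromatin, rose by 0.3 (SE 0.09, adjusted p = 0.0494). Hcfc1, a cofactor that MYC binds, fell by 0.33 (adjusted p = 0.0314). With shEzh2.781 alone 1 gene of this list fell, and with shEzh2.556 4 did. Over both hairpins the 3 falls were down to 0 when premalignant array 1 was left out, to 1 for premalignant array 2, array 1 of shEzh2.556 or either shEzh2.781 array, and to 2 for array 2 of shEzh2.556. The rise of Wdr5 passed in none of these 6 reduced sets.

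Of 21 genes that set the stability of the MYC protein, 5 fell and 1 rose (median -0.19). Plk1, 1 of the 5 (-0.41, limma adjusted p = 0.023), also stands in the list of mitosis genes, so its fall is counted in both. Aurka, a mitotic kinase that stabilises MYC proteins, fell by 0.53 (SE 0.11, adjusted p = 0.00588). Gsk3b, the kinase that marks MYC for degradation, fell by 0.48 (adjusted p = 0.015) and Btrc, a ubiquitin ligase subunit, fell by 0.51 (adjusted p = 0.00601). Fbxw7, the ligase subunit that reads the mark, differed by -0.07 (adjusted p = 0.716) and was 0.01 with premalignant array 1 left out. With shEzh2.781 alone 1 of the 21 genes fell, and with shEzh2.556 7 did. Gsk3b and Btrc were not called with shEzh2.781 (-0.34, adjusted p = 0.149, and -0.35, adjusted p = 0.0972). Compared directly, 3 genes of the list were higher with shEzh2.781. Over both hairpins the 5 falls were down to 2 when premalignant array 1 was left out and to 0 for premalignant array 2. The single rise was lost without any 1 of the 6 arrays.

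Of 32 measured genes that MYC is known to activate, 2 rose and 2 fell. Their median difference was 0.19, the highest of the 8 lists. Rrp9, a ribosomal RNA processing factor, rose by 0.4 (SE 0.1, adjusted p = 0.0132), and Prdx3, a mitochondrial peroxidase, rose by 0.41 (adjusted p = 0.0243). The largest differences were falls. Ccnd2, the cyclin D2 gene, read 9.01 and 9.74 in premalignant cells and between 7.66 and 8.04 in lymphomas, and fell by 1.51 (SE 0.16, adjusted p = 6.33e-05). Tert, the telomerase catalytic subunit, fell by 0.97 (SE 0.1, adjusted p = 3.88e-05). Neither rise passed with premalignant array 2 left out, and 1 did for premalignant array 1, array 2 of shEzh2.781 or array 1 of shEzh2.556. Both falls were kept in number for each array left out.

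Of 13 measured genes that MYC is known to repress, 5 fell and 2 rose (median -0.27). With shEzh2.781 alone 5 fell and none rose, and with shEzh2.556 5 fell and 2 rose. Of the 2 rises over both hairpins, 1 was Gadd45a and the other was called with neither hairpin alone. Ccng2, an unusual cyclin of resting cells, fell by 1.23 (SE 0.11, adjusted p = 1.93e-05), and Thbs1, the angiogenesis inhibitor thrombospondin, fell by 1.66 (SE 0.18, adjusted p = 6.79e-05). Gadd45a, a growth arrest gene, read 8.19 and 8.11 in premalignant cells, 7.6 and 7.59 with shEzh2.781, and 11.11 and 10.95 with shEzh2.556. It fell by 0.56 (adjusted p = 0.00764) with the first and rose by 2.88 (adjusted p = 2.54e-08) with the second, so its mean over both hairpins describes neither. Cdkn2c, a CDK inhibitor gene, fell by 1.1 (SE 0.1, adjusted p = 1.3e-05). Of the 2 rises 1 passed when either premalignant array, array 2 of shEzh2.781 or either shEzh2.556 array was left out.

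Of 8 genes known as targets of MLX and its partners, 2 rose and 2 fell (median -0.05). With shEzh2.781 alone 1 rose and 2 fell, and with shEzh2.556 2 rose and 2 fell. Of the falls with shEzh2.781 1 was in a gene not called over both hairpins. Txnip, the thioredoxin inhibitor that MondoA induces with glucose, rose by 0.34 over both hairpins (SE 0.1, adjusted p = 0.0296). It was not called with shEzh2.781 alone (0.26, adjusted p = 0.175). The hexokinase gene Hk2 rose by 0.42 (adjusted p = 0.0107). Elovl6, a fatty acid elongase, fell by 0.75 (adjusted p = 0.00177). Klf10, a transcription factor gene, fell by 0.44 over both hairpins (adjusted p = 0.0241). It fell by 0.74 with shEzh2.556 (adjusted p = 0.00246), while with shEzh2.781 it read 9.05 and 8.7 against 9.08 and 8.94 in premalignant cells (-0.13, adjusted p = 0.66), and the hairpins differed (adjusted p = 0.0171). Neither rise passed with either premalignant array left out, and 1 did for either shEzh2.781 array or array 2 of shEzh2.556. Of the falls 1 passed for either premalignant array, array 2 of shEzh2.781 or array 1 of shEzh2.556.

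**Figure D5:**
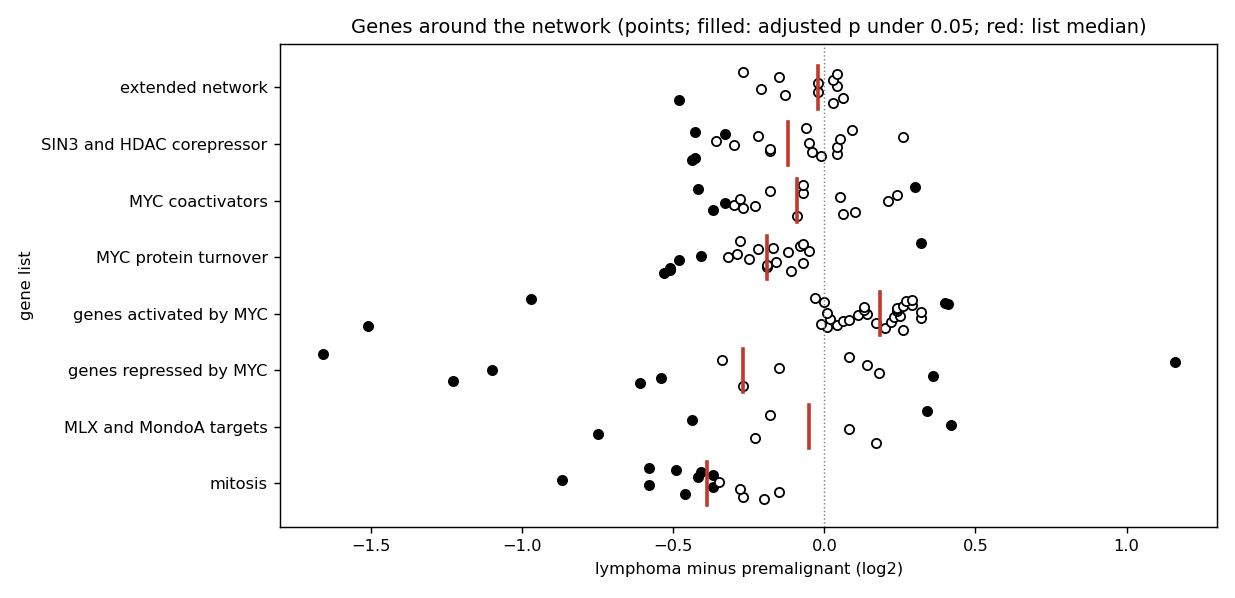
Difference between lymphomas and premalignant cells (x axis, log2) of each measured gene in 8 lists; filled points have an adjusted p under 0.05 and red lines are list medians. The list medians run from -0.39 for mitosis genes to 0.19 for genes activated by MYC.

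The cell type of the samples was checked with marker genes, beside 9.61% of all genes called lower in lymphomas and 5.6% called higher. The mean signal of 7 B-lineage markers stayed between 11.4 and 11.76 on all arrays, with 3 genes lower (1 with premalignant array 2 left out) and 1 higher in lymphomas. The B-lineage mean covers opposite changes: Blk fell by 1.03, Ebf1 by 0.49 and Pax5 by 0.44, while Cd22 rose by 0.55. Blk fell by 0.56 with shEzh2.781 and by 1.5 with shEzh2.556, and the hairpins differed (limma adjusted p = 0.00187). Of 7 pro-B and pre-B cell markers 6 fell, with a median of -1.65. Their mean signal was 9.05 and 9.42 in premalignant cells and between 7.27 and 7.87 in lymphomas. Of 5 erythroid markers 3 fell (2 with premalignant array 2 left out, 5 with array 2 of shEzh2.781 left out), with means of 8.38 and 8.59 against 6.5 to 8.55. By limma all 5 fell with shEzh2.781 alone and none passed with shEzh2.556 (2 lower at an unadjusted p under 0.05), and all 5 were lower with shEzh2.781 when the hairpins were compared directly. Markers of T cells (2 of 8), NK cells (4 of 6), megakaryocytes (3 of 4), eosinophils (3 of 4), dendritic cells (3 of 5) and plasma cells (3 of 5) fell in part, while 3 of 8 macrophage markers and 1 dendritic cell marker rose. No macrophage marker was called lower over both hairpins, but Lyz2 was lower on all 4 lymphoma arrays (-1.23, limma adjusted p = 0.0677). By limma 1 macrophage marker fell with each hairpin alone. With shEzh2.556 this was Lyz2 (-1.74, adjusted p = 0.0257), and with shEzh2.781 it was another marker (-0.65, adjusted p = 0.0173). By limma the macrophage rises were 3 with shEzh2.556 and 0 with shEzh2.781 (1 at an unadjusted p under 0.05). Leaving out premalignant array 1 took the NK count to 2 and both rising counts to 0, and leaving out premalignant array 2 took the dendritic and plasma cell counts to 1 and the macrophage count to 1. The macrophage count was also 0 for array 1 of shEzh2.556 and 1 for array 2 of shEzh2.781. The part of these marker changes in the member results was not tested.

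The genes whose signal followed the members most closely over the 6 arrays were listed as a description. For Mxd3 they were Eapp, Cdkl1, Megf9, Apobec1 and Rragd, with Pearson correlations of 0.994 to 0.997, and each of these fell in the lymphomas. For Myc they were Zfp609, Ipo7, Arhgef6, Ugcg and Dnajc11, with correlations of 0.995 to 0.997. Of these, Arhgef6 rose by 0.49 (adjusted p = 0.00672) and Ugcg by 0.52 (adjusted p = 0.00497), while the others differed by 0.14 to 0.2 without passing the test. The 6 arrays fall into 3 groups, so genes that share only the order of the groups also score high.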

How the data were processed

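Biotin-labelled total RNA was read on 1-colour Mouse Gene 1.0 ST arrays, per the labels. Lymphoma cells had been purified with CD43 beads to at least 95% cells positive for B220 and GFP, per the labels. The authors deposited 1 value per probe set, read as log2 signal from its range of 2.3 to 14.22; background correction, normalization and summarization are not given in the sources used here. Depth has no equivalent on arrays, and their number limits the precision.

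The annotation gave a single symbol to 21789 of 35512 probe sets, which were used, several to 1621 and none to 12102. The probe set of highest mean stood for each of 19938 genes. One limma fit (limma 3.58.1, R 4.3.3) held all 3 groups without covariates (3 residual and 8.51 prior degrees of freedom). The fit was tested on simulated data with 200 genes changed in the lymphomas. It recovered 12% of changes of 0.5, 99.1% of changes of 1 and 99.9% of changes of 2. More genes were called in the data than were changed in the simulation, so these shares need not carry over. Differences of 0.5 or less that did not pass are thus not shown to be absent. Named genes are all members, up to 4 genes per list with the smallest p, some fixed list genes, and the 5 genes most correlated with Myc and with the member of smallest p. Members, lists and tests were chosen with earlier results of these data known. Tables were made with Python 3.11.15, pandas 2.3.3 and numpy 2.4.6, and figures with matplotlib 3.10.9.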

Additional observations from a re-analysis of the deposited data

Results flagged for a closer look

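No member was called between the hairpins by the limma test of the difference itself (shEzh2.781 minus shEzh2.556). In the 8 pathway lists 10 genes were called, among them 4 that the report names by its rule. The other 6 were Yeats4, Usp28, Pim1, Cdkn1b, Cdkn2b and Pklr, named here after their values were seen. Over all genes 10% were called. With shEzh2.781 1 of 17 coactivators and 3 of 21 turnover genes were higher. Of 13 genes repressed by MYC 2 were higher and 2 lower, and of 8 MLX targets 1 was higher and 1 lower. None was called among 12 E-box factors, 18 corepressor genes, 32 genes activated by MYC or 14 mitosis genes. Marker genes were called as well, including all 12 neutrophil markers (higher with shEzh2.781) and all 5 erythroid markers (lower). Gadd45a differed by -3.43 (SE 0.11, adjusted p = 9.85e-09), with both shEzh2.781 arrays below and both shEzh2.556 arrays above premalignant cells. Cdkn2c, which encodes the CDK inhibitor p18, differed by 1.2 (SE 0.11, adjusted p = 7.29e-05) and was lower than in premalignant cells on all 4 lymphoma arrays. Klf10 differed by 0.61 (SE 0.13, adjusted p = 0.0171), and Cip2a, an inhibitor of the phosphatase that destabilises MYC, by 0.5 (SE 0.13, adjusted p = 0.0351).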

How the results depend on the processing

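The members were refitted under quantile normalization, array medians subtracted, dim genes left out, the mean of a gene's probe sets, an intensity trend, a replicate block, lymphomas as 1 group and without each array. Of 486 values of members, 444 kept direction and side of the threshold, 18 lost the call, 3 gained it and 21 changed sign. Mxd3 was called lower in lymphomas in every setting. The 18 lost calls were all of Mxd1 or Mxd4. Most of the 486 values belong to comparisons in which the member had no call to lose. Same-numbered arrays deviated from their group means with correlations of -0.152, -0.155 and 0.172, so the numbers were not taken as pairs. With the replicate block 3 members were called in lymphomas and 2889 genes in all, and the block changed no member's call in any comparison. With lymphomas as 1 group 1 member and 1091 genes were called, with adjusted p of 0.0878 for Mxd1 and 0.0536 for Mxd4. With medians subtracted 1 member was called with shEzh2.781 and 2 between hairpins.

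Leaving out 1 array gave 1 to 3 members called in lymphomas, 1 to 3 with shEzh2.781, 1 to 2 with shEzh2.556 and 0 between hairpins; the counts of all genes were 1721 to 2833, 1103 to 2048, 1949 to 3669 and 718 to 2085.

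No value that changed sign was called. Between hairpins quantile normalization gave Max -0.05, Mxd4 -0.06 and Mxi1 -0.09, and medians subtracted gave Myc 0.05 and Mnt 0.05. Against premalignant cells Mycn was 0.05 and 0.06 under these 2 scalings, and with shEzh2.556 Mnt was 0.05 and Mlx 0.07 after quantile normalization. Leaving out 1 array gave -0.1 to 0.09 for Mycn against premalignant cells and, with shEzh2.556, -0.02 to 0.07 for Max and -0.09 to 0.04 for Mlx. Between hairpins it gave -0.04 to 0.05 for Max, -0.07 to 0.12 for Mxd4, -0.1 to 0.14 for Mxi1 and -0.01 to 0.17 for Mga. In alternatives for the lists, added after the data were seen, Fbxw7 was 4.2e-05 after quantile normalization, -0.16 to 0.01 on leaving out 1 array, and Mlxipl -0.06 to 0.18. The cause of these changes was not tested. Mycn reads near the array median and Myc near the top of the scale, which may limit what could be seen for both. Whether it did was not tested.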
